A study of Mus musculus with 24 samples.

Results

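The comparison described here sets mouse CD8 T cells given lactate together with Oxyrase against cells given NaCl, by messenger RNA sequencing. It rests on 6 of the 24 libraries of the series: 3 with lactate and Oxyrase and 3 with NaCl. Its members are all 14749 genes, of 55401 in the deposited table, that passed a filter on low counts. CD8 T cells of C57BL/6J mice were isolated from spleens and lymph nodes on magnetic microbeads, activated on plates with anti-CD28 and IL-2, and cultured for 3 days. Lactate or NaCl was present at 20 mM between day 2 and day 3, and NaCl serves as the control at the same concentration. In 1 group Oxyrase was added to the lactate, at a dose the labels do not give. The other RNA groups, also of 3 libraries each, received lactate alone or sodium pyruvate. All groups share the strain, the isolation and the activation, and no group analysed here received Oxyrase without lactate, so the effect of Oxyrase without lactate cannot be read from these groups. The libraries with lactate alone, which differ from the first group by Oxyrase only, are given beside the main comparison.

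Oxyrase is a preparation of bacterial membrane fragments that removes dissolved oxygen from the medium by reducing it to water, with substrates such as lactate as hydrogen donors. When oxygen is short, prolyl hydroxylases no longer mark the subunits HIF-1α and HIF-2α for destruction, and the stabilised factors switch on genes for glucose uptake, glycolysis, blood vessel growth and mitophagy. Low oxygen also limits the respiratory chain and the oxygen-consuming steps of sterol and unsaturated fatty acid synthesis, and mitochondrial or amino acid stress can start the integrated stress response, in which the factor ATF4 induces amino acid transporters, amino acid synthesis and tRNA charging. In activated CD8 T cells these pathways act beside the effector programme of cytokines, granzymes and perforin.

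The sequences below are promoter stretches of genes from several of the groups described, shown so that known motifs can be seen beside the values that follow. Each is 100 bases of the 300-base window around an annotated transcript start (250 bases before it and 50 after), from RefSeq on build GRCm38.p6, written 5′ to 3′ on the gene's strand, with the motif in capitals. The first 3 belong to genes of the hypoxia response: Bnip3, a mitophagy receptor, Ero1a, an oxidase of the endoplasmic reticulum, and Egln3, a prolyl hydroxylase. Capitals mark ACGTG, the core bound by hypoxia-inducible factors, on either strand; in Bnip3 2 matches overlap as the palindrome.
Bnip3 (chr7:138909561-138909660, minus strand): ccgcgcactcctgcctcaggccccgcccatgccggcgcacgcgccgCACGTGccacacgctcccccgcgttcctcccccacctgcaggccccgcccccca
Ero1a (chr14:45318582-45318681, minus strand): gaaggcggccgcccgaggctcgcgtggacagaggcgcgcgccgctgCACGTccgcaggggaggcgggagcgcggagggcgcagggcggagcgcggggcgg
Egln3 (chr12:54204025-54204124, minus strand): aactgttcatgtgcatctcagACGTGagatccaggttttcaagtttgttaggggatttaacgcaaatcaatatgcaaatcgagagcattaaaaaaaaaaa
The next 4 belong to genes of the integrated stress response: Trib3, a pseudokinase, Chac1, which degrades glutathione, Asns, asparagine synthetase, and Aars, alanyl-tRNA synthetase. Capitals mark TGATGNAA, the element bound by ATF4 with C/EBP partners, on either strand.
Trib3 (chr2:152344011-152344110, minus strand): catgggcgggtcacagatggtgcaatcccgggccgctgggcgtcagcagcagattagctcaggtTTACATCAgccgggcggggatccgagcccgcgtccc
Chac1 (chr2:119351003-119351102, plus strand): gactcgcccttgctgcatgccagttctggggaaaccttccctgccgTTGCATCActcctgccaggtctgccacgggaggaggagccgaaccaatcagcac
Asns (chr6:7693179-7693278, minus strand): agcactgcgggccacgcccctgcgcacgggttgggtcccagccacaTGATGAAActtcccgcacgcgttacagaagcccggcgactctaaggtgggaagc
Aars (chr8:111033684-111033783, plus strand): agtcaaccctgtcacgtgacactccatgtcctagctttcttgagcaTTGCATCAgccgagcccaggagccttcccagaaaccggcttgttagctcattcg
The following 3 belong to interferon-inducible GTPases (Gbp2, Igtp and Irgm1). Capitals mark GAAANN followed by GAAA, the core of the interferon-stimulated response element, on either strand; in Irgm1 2 matches overlap.
Gbp2 (chr3:142620558-142620657, plus strand): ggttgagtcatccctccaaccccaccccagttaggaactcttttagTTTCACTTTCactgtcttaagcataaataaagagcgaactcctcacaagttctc
Igtp (chr11:58199476-58199575, plus strand): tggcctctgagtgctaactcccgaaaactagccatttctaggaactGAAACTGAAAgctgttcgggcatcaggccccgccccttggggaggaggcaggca
Irgm1 (chr11:48871397-48871496, minus strand): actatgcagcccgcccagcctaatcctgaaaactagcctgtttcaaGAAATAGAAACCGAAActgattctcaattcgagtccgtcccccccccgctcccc
The last pair holds the sterol regulatory element TCACNCCA in Hmgcs1, an enzyme of the mevalonate pathway, and the dioxin response element TNGCGTG in Ahrr, the repressor of the aryl hydrocarbon receptor. The dioxin element contains GCGTG and so overlaps the other core that hypoxia-inducible factors bind.
Hmgcs1 (chr13:119690168-119690267, plus strand): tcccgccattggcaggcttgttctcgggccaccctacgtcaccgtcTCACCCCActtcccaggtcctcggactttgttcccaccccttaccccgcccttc
Ahrr (chr13:74292307-74292406, minus strand): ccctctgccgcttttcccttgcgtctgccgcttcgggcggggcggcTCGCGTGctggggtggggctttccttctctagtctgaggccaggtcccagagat
These genes were picked for printing because their windows hold a match, and a match is a description of letters, not a binding site or a cause.

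Levels are given in counts-per-million units (CPM), from the deposited count table with library totals scaled by TMM factors, and differences as log2 fold changes with their standard error (SE). A gene is called, and is said to have risen or fallen, where its p-value from edgeR's quasi-likelihood test, adjusted by Benjamini-Hochberg over all 14749 genes, lay under 0.05. The deposited totals of the 12 RNA libraries lay between 26036288 and 39643683 reads, with 27579182 to 33485015 for lactate with Oxyrase and 26036288 to 32793256 for NaCl, so that 3 counts, the limit below which a level is read as not detected, correspond to 0.0757 to 0.115 CPM. The labels do not say whether replicates came from separate mice or cultures, so p-values measure only the spread between these libraries, which may be technical. The residual coefficient of variation among replicates was 5.05%. In a principal component analysis of the 12 RNA libraries the first component held 45.2% of the variance and set the lactate with Oxyrase libraries (52.2 to 56.3) apart from the NaCl libraries (-26.1 to -25), and the second held 10.8%. The share of counts on mitochondrially encoded mRNAs was 2.734%, 2.972% and 2.691% in the lactate with Oxyrase libraries and 2.691%, 2.522% and 2.847% in the NaCl libraries, so these ranges overlapped.

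Lactate with Oxyrase differed from NaCl at about as many genes as it left uncalled. In all, 7492 of the 14749 genes were called, which is 50.8%, with 3915 higher (26.5%) and 3577 lower (24.3%) in lactate with Oxyrase, and 8274 had an unadjusted p under 0.05. The CPM of the 3 lactate with Oxyrase libraries did not overlap those of the 3 NaCl libraries at 8415 genes (57.1%). Most called differences were small, with a median size of 0.38 on the log2 scale, and 3231 genes were called when the fold was tested against 1.2 (1866 higher, 1365 lower). The large ones lay on the higher side: 873 called genes were at least 2-fold higher and 376 at least 2-fold lower, 327 against 61 differed at least 4-fold, and 154 against 12 at least 8-fold. Many were genes of low level. Of those at least 2-fold higher or lower, 418 and 192 lay in the fifth of genes with the lowest mean level, and 31 and 15 in the fifth with the highest. The median log2 fold change of all tested genes was -0.001. Since called genes are this common, a gene group is read below against 26.5% of genes higher and 24.3% lower.

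**Figure D1:**
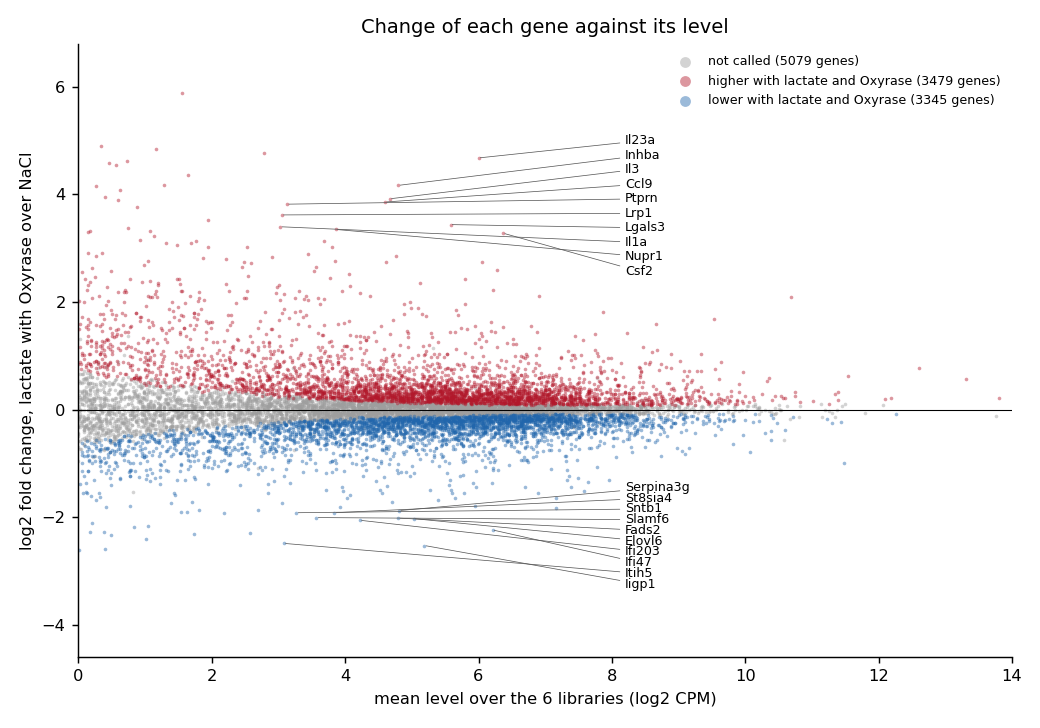
Log2 fold change between lactate with Oxyrase and NaCl libraries (y axis) against mean level over the libraries (x axis, log2 CPM) for the 11903 tested genes with a mean of at least 0 on that scale. Points are genes, coloured as called higher (3479), called lower (3345) or not called (5079). Labels mark the 10 highest and 10 lowest called genes with a mean of at least 3, a proper symbol and groups that did not overlap. Cyp1b1 lies above the axis, and the upper arm of the cloud reaches further from 0 than the lower arm.

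Il23a, Inhba, Il3 and Ccl9 encode secreted proteins and rose by large amounts. Il23a, a subunit of the cytokine IL-23 (ENSMUSG00000025383, chr10:128296140-128298084), had 387, 285 and 308 CPM in the lactate with Oxyrase libraries, against 14.6, 10.3 and 13.3 CPM in the NaCl libraries. The groups lay far apart, and the log2 fold change was 4.68 ± 0.12 (SE), or 25.6-fold, with an adjusted p of 1.84e-14 in edgeR. With lactate alone Il23a had 10.8, 10.9 and 9.36 CPM, which did not pass the test against NaCl. Inhba, a subunit of activin (ENSMUSG00000041324, chr13:16004256-16031609), had 132, 113 and 116 CPM in lactate with Oxyrase and 8.88, 5.91 and 4.97 CPM in NaCl, a log2 fold change of 4.17 ± 0.14. Il3, a growth factor for blood progenitors, reached 103, 89.6 and 103 CPM in lactate with Oxyrase, against 6.53, 6.51 and 6.4 CPM in NaCl, and Ccl9, a chemokine, stood at 94.2, 82.5 and 101 CPM against 6.65, 6.97 and 5.44 CPM. In none of these genes did the groups overlap, which the choice of the highest 10 required.

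The remaining genes of the highest 10 were of mixed kinds. They were Ptprn, a phosphatase-like protein of secretory granules (log2 fold change 3.82 ± 0.11), Lrp1, an endocytic receptor (3.62 ± 0.20), Lgals3, the lectin galectin-3 (3.44 ± 0.08), Il1a, the alarmin IL-1α (3.40 ± 0.17), Nupr1, a stress-induced nuclear protein (3.35 ± 0.15), and Csf2, which encodes the cytokine GM-CSF (3.28 ± 0.11). Csf2 (ENSMUSG00000018916, chr11:54247270-54249899) had 278, 221 and 276 CPM in lactate with Oxyrase and 27.5, 25.9 and 26.3 CPM in NaCl. It had 26.4, 30 and 27 CPM with lactate alone and 58.4, 81.6 and 76.3 CPM with pyruvate. Lrp1 was the most uneven of them, with 19.5, 33 and 34.9 CPM in the lactate with Oxyrase libraries against 2.53, 2.04 and 2.58 CPM in the NaCl libraries. Only called genes with a mean of 3 or above on the log2 CPM scale, a proper symbol and groups that did not overlap were ranked.

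The 10 genes that fell most hold 4 interferon-inducible genes and 2 enzymes of fatty acid synthesis. They were Iigp1, Ifi47, Ifi203 and Serpina3g, with log2 fold changes of -2.53 ± 0.09, -2.24 ± 0.05, -2.06 ± 0.10 and -1.88 ± 0.07, and Elovl6 and Fads2, with -2.03 ± 0.08 and -2.02 ± 0.11. The other 4 were Itih5, an inter-α-trypsin inhibitor family member (-2.49 ± 0.14), Slamf6, a receptor of lymphocytes (-2.01 ± 0.09), St8sia4, a polysialyltransferase (-1.92 ± 0.08), and Sntb1, a syntrophin (-1.92 ± 0.14). Iigp1, Ifi203 and Serpina3g belong to clusters of near-identical copies, so their counts are uncertain as to the copy.

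Among the genes of T cell killing and cytokines, 18 of 25 tested rose and 4 fell in lactate with Oxyrase, with a median log2 fold change of 0.82, against -0.001 over all tested genes. Ifng, the cytokine interferon-γ (ENSMUSG00000055170, chr10:118441046-118445894), had 3202, 3517 and 3511 CPM in lactate with Oxyrase, against 771, 854 and 771 CPM in NaCl. Its means were 3410 ± 180 and 799 ± 48.1 CPM (SD, n = 3 each), a 4.27-fold difference with an adjusted p of 2.32e-13 in edgeR, and the groups did not overlap. Prf1, the pore-forming protein perforin, had 442, 431 and 448 CPM in lactate with Oxyrase and 109, 135 and 133 CPM in NaCl, or 3.52-fold more. Gzmb, the protease granzyme B, had 8923, 7875 and 7939 CPM in lactate with Oxyrase and 4321, 4679 and 5367 CPM in NaCl, a smaller log2 fold change of 0.78 ± 0.07. The groups were apart for both. All 3 genes were also called higher with lactate alone than with NaCl, at 970, 1053 and 980 CPM for Ifng, 149, 159 and 154 CPM for Prf1 and 6131, 6641 and 5906 CPM for Gzmb, below every lactate with Oxyrase library. Gzma, granzyme A, stood at 0.852, 0.86 and 0.698 CPM in lactate with Oxyrase and at 0.0903, 0 and 0 CPM in NaCl, near the limit of detection. Tnf and Il2, further T cell cytokines, did not pass the test, with log2 fold changes of 0.16 (adjusted p 0.0678) and 0.22 (adjusted p 0.22 in edgeR). Without the first lactate with Oxyrase library Tnf was at 0.21 and passed. It also passed without a filter on low counts (0.15) and with at least 10 counts in every library (0.16). The 4 that fell were Ltb, Csf1, Tnfsf10 and Lamp1, from -1.64 to -0.38; they are named here after their values were seen.

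**Figure D2:**
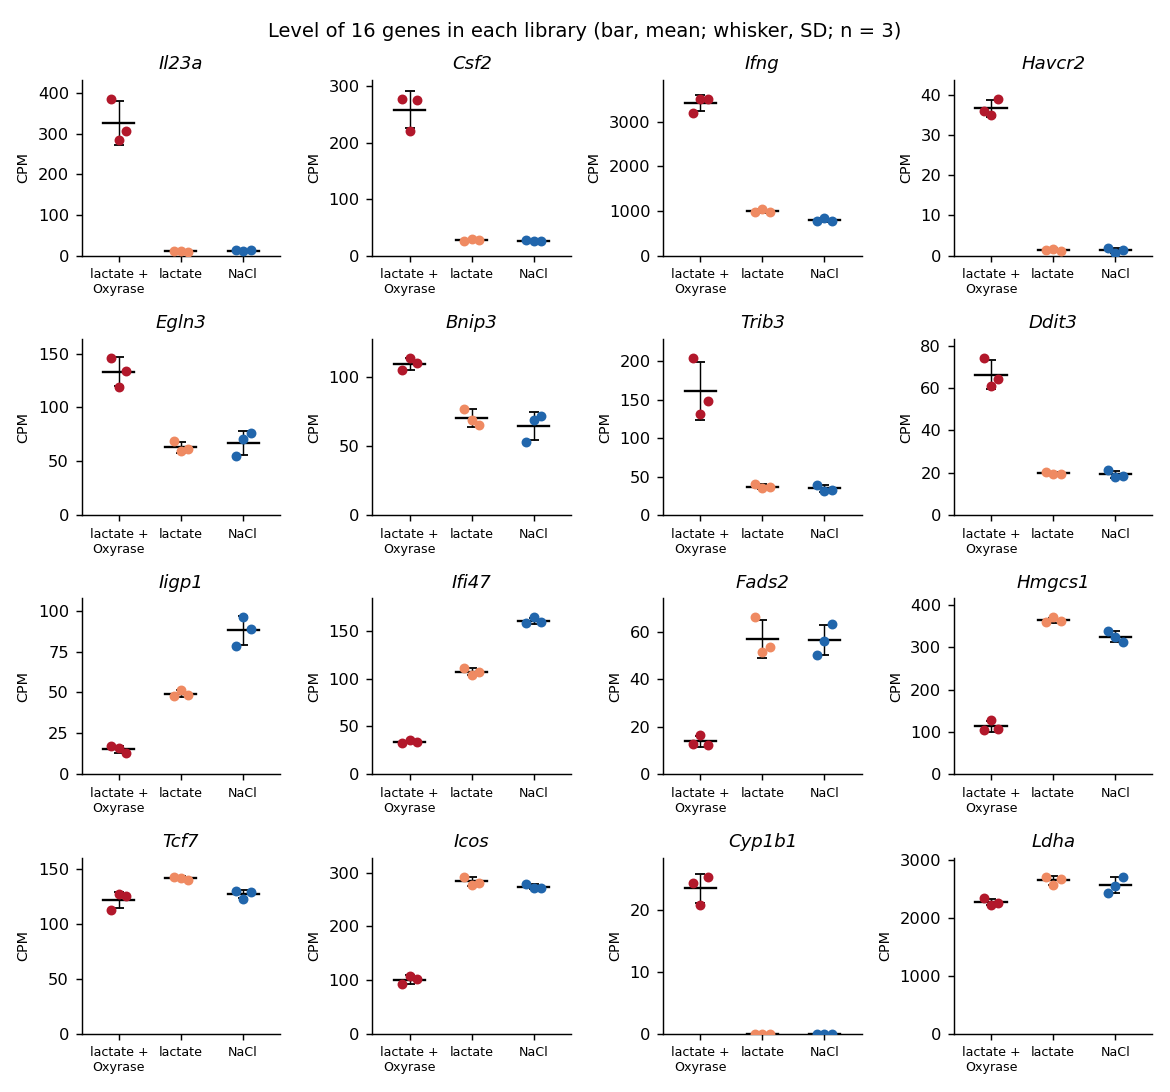
CPM in each library (points) for 16 genes with the mean of each group as a bar and the SD as a whisker (n = 3), in the order lactate with Oxyrase, lactate alone and NaCl, each gene on its own axis from 0. Among these groups Il23a, Csf2, Ifng, Havcr2 and Cyp1b1 stand high in lactate with Oxyrase libraries only or mainly. Fads2, Hmgcs1, Icos, Iigp1 and Ifi47 stand lowest there, and Tcf7 overlaps between lactate with Oxyrase and NaCl. Pyruvate libraries are not shown. Their means were 15 CPM for Il23a, 72.1 CPM for Csf2, 1276 CPM for Ifng, 18.8 CPM for Havcr2 and 0 CPM for Cyp1b1.

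The hypoxia genes outside glycolysis moved mostly upwards, while the mRNA of the oxygen-regulated factor itself fell. Of 36 tested members of this list 25 rose and 4 fell, with a median log2 fold change of 0.61, which compares with 26.5% of all genes higher. P4ha2, a collagen prolyl hydroxylase, had 38.6, 28.3 and 31.5 CPM in lactate with Oxyrase and 3.43, 6.39 and 8.6 CPM in NaCl (log2 fold change 2.44 ± 0.19). Vegfa, the vascular growth factor, had 124, 98.1 and 100 CPM in lactate with Oxyrase and 36.6, 38.8 and 44.8 CPM in NaCl (1.43 ± 0.09). Bnip3 (ENSMUSG00000078566, chr7:138890836-138909506), whose promoter is printed above, had 105, 114 and 110 CPM in lactate with Oxyrase and 53, 69 and 72 CPM in NaCl (0.77 ± 0.09). In all 3 genes every lactate with Oxyrase library lay above every NaCl library. Adm, the peptide adrenomedullin, and Hmox1, haem oxygenase, rose as well, by 2.32 ± 0.23 and 2.05 ± 0.10 on the log2 scale. Trib3, which is also a member of the stress response list, rose by 2.22 ± 0.13. Ero1a, chosen for its promoter printed above, had 663, 712 and 725 CPM in lactate with Oxyrase and 221, 233 and 245 CPM in NaCl (1.59 ± 0.06). With lactate alone 3 of the 36 rose and 2 fell against NaCl, and Bnip3 had 77.3, 68.8 and 65 CPM there.

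Among 14 regulators of the pathway 6 rose and 4 fell, with a median of 0.04. Egln3, the prolyl hydroxylase that hypoxia-inducible factors themselves induce, had 146, 119 and 134 CPM in lactate with Oxyrase and 54.6, 70.4 and 76.5 CPM in NaCl, a log2 fold change of 0.99 ± 0.10, while Egln1, the main oxygen-sensing hydroxylase, did not pass the test (-0.02 ± 0.05). Hif1a (ENSMUSG00000021109, chr12:73901324-73947554) fell, with 401, 381 and 361 CPM in lactate with Oxyrase against 481, 465 and 476 CPM in NaCl, by 0.32 ± 0.04 on the log2 scale (adjusted p 6.89e-06 in edgeR), though not against a fold of 1.2 (adjusted p 0.134 with edgeR's glmTreat). With lactate alone it was higher than with NaCl, at 549, 564 and 517 CPM. Hif3a, a family member that hypoxia induces, rose from a low level, with 2.74, 4.26 and 4.4 CPM in lactate with Oxyrase and 0.602, 0.791 and 0.733 CPM in NaCl. Bhlhe40, a repressor that hypoxia induces, rose by 0.90 ± 0.05, and Epas1, which encodes HIF-2α, stayed under 1 CPM in all 6 libraries and did not pass (adjusted p 0.71 in edgeR).

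In the promoter windows of the hypoxia list, ACGTG on either strand was present in 21 of 35 windows, or 60.0%, against 19.6% of all 32851 windows and 25.6% of those of tested genes. With GCGTG accepted as well, the shares were 85.7% of the list, 43.8% of all and 61.3% of tested genes. Over all tested genes, ACGTG was in 25.7% of the windows of genes called higher in lactate with Oxyrase, 25.6% of those called lower and 25.5% of those not called, and either core was in 60.7%, 63.0% and 60.7%. Among called genes with a log2 fold change, rounded to 2 decimals, of at least 1, either core was in 52.4% of the windows of those higher and 47.8% of those lower. The list was put together from known hypoxia genes, some of which are known through such sites.

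Glucose uptake and glycolysis did not move as a block. Of 23 tested members 11 rose, 4 fell and 8 did not pass, with a median of 0.08. Slc2a3, a glucose transporter, had 320, 377 and 355 CPM in lactate with Oxyrase and 113, 134 and 149 CPM in NaCl, a log2 fold change of 1.41 ± 0.09 with the groups apart. Slc2a1, the other main glucose transporter, differed by 0.24 ± 0.06. Ldha, the lactate dehydrogenase subunit, had 2334, 2226 and 2258 CPM in lactate with Oxyrase, below the 2428, 2544 and 2702 CPM in NaCl (-0.17 ± 0.04). Hk2, hexokinase, did not pass (-0.05 ± 0.05), and Pdk1, the kinase that shuts pyruvate dehydrogenase, had 105, 125 and 116 CPM in lactate with Oxyrase and 124, 129 and 136 CPM in NaCl, so the ranges overlapped although it was called lower (-0.17 ± 0.06). Without the first lactate with Oxyrase library Pdk1 stood at -0.11 (adjusted p 0.098 in edgeR) and without the third NaCl library at -0.14 (adjusted p 0.0723), both no longer called. Eno2 rose and Eno3 fell, both enolases, by 1.07 ± 0.15 and -1.14 ± 0.06. Among 16 genes of pyruvate and lactate transport and conversion 5 rose and 4 fell: Gpt2, which makes alanine from pyruvate, rose by 1.56 ± 0.13, Pdp2, a pyruvate dehydrogenase phosphatase, fell (-0.83 ± 0.05), the lactate transporter Slc16a1 fell (-0.24 ± 0.04), and Slc16a3, the other lactate transporter, did not pass (adjusted p 0.0634 in edgeR). Slc16a3 passed without the second or without the third NaCl library, at 0.26 and 0.27. It also passed without a filter on low counts (0.18) and with at least 10 counts in every library (0.2).

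More genes of mitochondria fell than rose, by small amounts. Of 18 enzymes of the TCA cycle 3 rose and 10 fell (median -0.12), of 40 nuclear-encoded respiratory chain subunits 3 rose and 17 fell (median -0.05), and of 34 mitochondrial ribosomal proteins 3 rose and 17 fell (median -0.13). Suclg2 and Sdhd, subunits of succinyl-CoA ligase and succinate dehydrogenase, fell by 0.52 ± 0.04 and 0.50 ± 0.05 on the log2 scale. Cox7b, Ndufa4 and Cox7a2 were the respiratory subunits named for the largest falls (-0.40, -0.38 and -0.35), and Uqcrq rose by 0.43 ± 0.06. Ndufa4 had 66.4, 66.4 and 72.5 CPM in lactate with Oxyrase, below the 92.8, 87.7 and 87 CPM in NaCl. Lonp1, the mitochondrial protease, had 605, 523 and 558 CPM in lactate with Oxyrase and 256, 264 and 282 CPM in NaCl (1.07 ± 0.05). Cox4i2, the oxygen-regulated isoform of a cytochrome oxidase subunit, had 1, 0.894 and 0.486 CPM in lactate with Oxyrase and was at 0 in all NaCl and lactate libraries, or at least 6.8-fold higher, a call that was lost with DESeq2 (adjusted p 0.0692). Of the 13 mitochondrially encoded mRNAs 1 rose (mt-Co1, 0.22 ± 0.05) and 2 fell (mt-Cytb, -0.25 ± 0.06, and mt-Nd4l, -0.45 ± 0.14), with a median of 0.00. Lactate alone differed from NaCl in the same directions, at 0.18 (called) for mt-Co1, -0.32 (called) for mt-Cytb and -0.35 (not called) for mt-Nd4l. None of these mRNAs passed the test between lactate with Oxyrase and lactate alone. Without the third NaCl library mt-Nd4l was at -0.25 and no longer called, which leaves 1 lower, and without the second lactate with Oxyrase library 5 of the 13 were lower. The number of TCA cycle enzymes that rose was 1 without the third lactate with Oxyrase library or without the first NaCl library.

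All 31 tested genes of the integrated stress response list rose in lactate with Oxyrase, against 26.5% of all genes, with a median log2 fold change of 1.03. Trib3 (ENSMUSG00000032715, chr2:152337425-152344060) had 204, 131 and 148 CPM in lactate with Oxyrase and 39.4, 31.3 and 33 CPM in NaCl. Ddit3, the factor CHOP, had 74.3, 60.8 and 64.2 CPM in lactate with Oxyrase and 21.3, 18.1 and 18.6 CPM in NaCl (1.78 ± 0.08). Nupr1 had 61, 38.7 and 40.6 CPM in lactate with Oxyrase and 5.21, 3.99 and 4.51 CPM in NaCl. In all 3 the lactate with Oxyrase libraries lay above the NaCl libraries, and their first replicate was the highest. Atf4, the factor of the response, rose less, by 0.62 ± 0.05, and the cystine transporter Slc7a11, the lipoprotein receptor Vldlr and the folate enzyme Aldh1l2 rose by 2.65 ± 0.19, 2.76 ± 0.17 and 2.53 ± 0.17. Asns, chosen like Chac1 for its promoter printed above, had 592, 422 and 473 CPM in lactate with Oxyrase and 182, 183 and 188 CPM in NaCl (1.43 ± 0.08), and Chac1 rose by 1.61 ± 0.11. With lactate alone, 1 of the 31 rose and 1 fell against NaCl, and Trib3 had 40.5, 34.5 and 36.1 CPM.

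Of the 20 cytosolic aminoacyl-tRNA synthetases, which load amino acids onto tRNAs, 16 rose and 3 fell, with a median of 0.43. Nars, asparaginyl-tRNA synthetase, had 1069, 862 and 868 CPM in lactate with Oxyrase and 452, 448 and 461 CPM in NaCl (1.04 ± 0.06), and Sars, Lars and Aars, for serine, leucine and alanine, rose by 0.84, 0.80 and 0.77. The element TGATGNAA was present in 8 of 30 windows of the stress response list (26.7%) and 5 of 13 windows of the synthetases (38.5%), against 3.97% of all windows and 2.34% of those of tested genes. Over tested genes it was in 2.96% of windows of those called higher, 1.94% of those called lower and 2.13% of those not called. Among called genes with a rounded log2 fold change of at least 1 in size, the shares were 4.15% for those higher and 2.61% for those lower. The stress response list, like the hypoxia list, was put together from known genes, so its share is no test.

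Protein folding genes of the endoplasmic reticulum and of heat shock did not follow the stress response list: 4 of 25 rose and 11 fell, with a median of -0.08. Hspa8, the constitutive HSC70 chaperone, had 1948, 2068 and 2072 CPM in lactate with Oxyrase, at about 1.99-fold less than the 3959, 3964 and 4206 CPM in NaCl. Hsph1, a co-chaperone, fell by 0.66 ± 0.03, and Hspa1a by 1.40 ± 0.12, though Hspa1a shares most of its sequence with Hspa1b, which did not pass. Dnajb9, a target of the IRE1 branch of the unfolded protein response, rose by 0.63 ± 0.10.

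**Figure D3:**
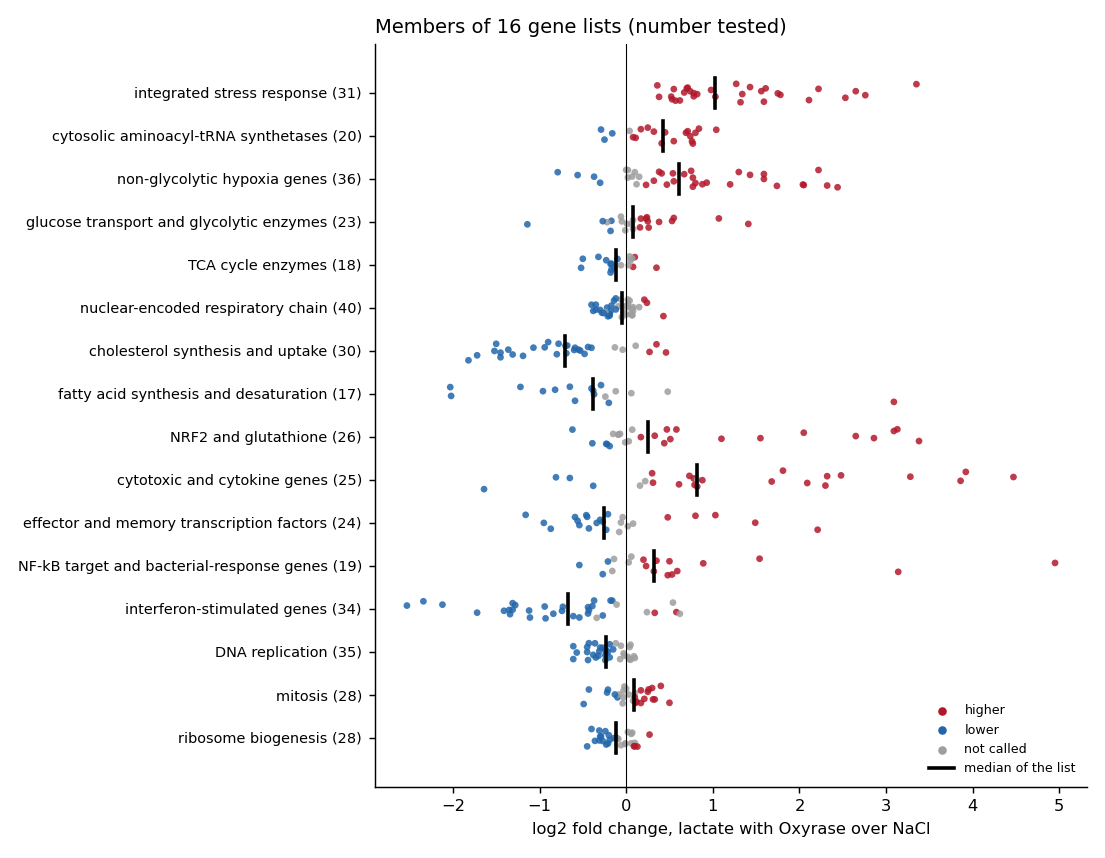
Log2 fold change between lactate with Oxyrase and NaCl for each tested member (points) of 16 gene lists, with the median of the list as a bar and a line at 0. All members of the integrated stress response lie above 0, while the medians of cholesterol synthesis (-0.70) and interferon-stimulated genes (-0.67) are the lowest of the 16.

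Sterol and fatty acid synthesis fell. Of 30 tested genes of cholesterol synthesis and uptake 24 fell and 3 rose, with a median of -0.70, against 24.3% of all genes lower. Hmgcs1, which makes HMG-CoA for the mevalonate pathway and whose promoter is printed above, had 104, 128 and 108 CPM in lactate with Oxyrase and 338, 325 and 312 CPM in NaCl (-1.52 ± 0.06, adjusted p 3.96e-12 in edgeR). The groups were apart, and lactate alone, with 360, 371 and 362 CPM for Hmgcs1, did not pass the test against NaCl (adjusted p 0.095 in edgeR). Mvd and Dhcr7, enzymes of an early and of the last step, fell by 1.82 ± 0.08 and 1.72 ± 0.07. The 3 that rose were Insig2, an endoplasmic reticulum protein that retains the SREBP precursor, and the cholesterol exporters Abcg1 and Abca1 (0.27 to 0.46), named after their values were seen. The sterol element TCACNCCA was in 3 of 27 windows of the list (11.1%), against 4.36% of all windows and 3.76% of tested genes. Over tested genes it was in 3.91% of windows of those called higher, 3.67% of those called lower and 3.71% of those not called. Among called genes with a rounded log2 fold change of at least 1 in size, the shares were 4.15% for those higher and 4.1% for those lower.

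Of 17 genes of fatty acid synthesis and desaturation 12 fell and 1 rose, with a median of -0.38. Fads2, the delta-6 desaturase (ENSMUSG00000024665, chr19:10062765-10101503), had 12.7, 16.6 and 12.4 CPM in lactate with Oxyrase and 50.4, 56.2 and 63.1 CPM in NaCl. Elovl6, a fatty acid elongase, had 15.2, 18.9 and 14.5 CPM in lactate with Oxyrase and 64.1, 62.9 and 71.6 CPM in NaCl, and was higher in lactate alone, at 84, 75.5 and 77.1 CPM. Scd1, a desaturase that uses oxygen, fell by 1.22 ± 0.12. Fatty acid uptake and oxidation was mixed, with 9 of 19 higher and 6 lower: Cd36, a fatty acid receptor, rose to 30.9, 27.9 and 30.2 CPM in lactate with Oxyrase, against 3.85, 4.57 and 3.47 CPM in NaCl (2.89 ± 0.10), and Cpt1a, which admits fatty acids to mitochondria, fell (-0.54 ± 0.07).

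The list of genes tied to the antioxidant factor NRF2 and to glutathione was split, with 14 of 26 higher, 5 lower and a median of 0.25. Srxn1, sulfiredoxin, had 39.3, 36.9 and 38.9 CPM in lactate with Oxyrase and 5.21, 4.08 and 3.74 CPM in NaCl (3.13 ± 0.13), with no overlap. Nqo1, a quinone reductase, rose by 3.38 ± 0.24 and the metallothionein Mt2 by 2.86 ± 0.08. Of 23 dioxygenases, enzymes that use oxygen and 2-oxoglutarate, 12 rose and 3 fell (median 0.12). The histone demethylases Kdm4a and Kdm6b each rose by 0.86, and Kdm3a by 0.18.

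Known targets of the aryl hydrocarbon receptor, a ligand-activated factor, were looked up after their values were seen. Cyp1b1, a cytochrome P450 (ENSMUSG00000024087, chr17:79706940-79715061), had 24.2, 20.8 and 25.3 CPM in lactate with Oxyrase and no count in any NaCl, lactate or pyruvate library, so that it was at least 203.5-fold higher (mean against a limit of 3 counts in a library, 0.115 CPM). Cyp1a1 had 7.56, 7.19 and 7.83 CPM in lactate with Oxyrase and 0, 0.0304 and 0 CPM in NaCl. Ahrr, whose promoter is printed above, had 7.11, 6.09 and 7.47 CPM in lactate with Oxyrase and 0.391, 0.335 and 0.116 CPM in NaCl (4.55 ± 0.28). The groups did not overlap in any of these 3. Tiparp, an ADP-ribosyltransferase, rose by 1.37 ± 0.10, and Nqo1, given above with the NRF2 list, was also among the genes looked up. Ugt1a10, a glucuronosyltransferase that shares its last exons with the other genes of its cluster, had 15.1, 5.4 and 11.4 CPM in lactate with Oxyrase and 0, 0.0913 and 0.0386 CPM in NaCl. Ahr itself did not pass (0.10 ± 0.15, adjusted p 0.624 in edgeR). TNGCGTG was present in 5.07% of all windows and 7.77% of those of tested genes, and the windows of Cyp1a1, Cyp1b1 and Tiparp held no match. Of all tested genes 47 had no count in any NaCl library, 41 of these were called higher, and 28 had more than 3 counts in each lactate with Oxyrase library. Genes without a count in NaCl could pass the low-count filter only through another group, so the share called higher follows in part from the filter. After Cyp1b1 the next bounds were those of Gm5483 (at least 59.8-fold higher), Lncenc1 (at least 18.6-fold) and Nags, which makes the activator of the urea cycle (at least 16.9-fold). Ccr1, a chemokine receptor, was at least 10.2-fold higher. These 4 were picked after their values were seen.

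Interferon-stimulated genes fell while Ifng rose. Of 34 tested members 27 fell and 2 rose, with a median of -0.67, against 24.3% of all genes lower. Iigp1 (ENSMUSG00000054072), a GTPase against intracellular pathogens, had 17.3, 15.8 and 12.8 CPM in lactate with Oxyrase and 78.6, 95.9 and 89 CPM in NaCl, and Ifi47, another GTPase, had 32.8, 35.5 and 33.5 CPM against 158, 164 and 159 CPM. Gbp2, with 102, 102 and 102 CPM in lactate with Oxyrase and 259, 249 and 252 CPM in NaCl, and Igtp and Irgm1, lower by 1.35 ± 0.05 and 1.41 ± 0.07 in lactate with Oxyrase, are shown for their promoters printed above. No library overlapped in these genes. Lactate alone lay between the other groups for Iigp1 (47.7, 51.6 and 48.3 CPM) and Ifi47 (111, 104 and 107 CPM), and of the 34 genes it lowered 12 against NaCl. Usp18 and Ifit1, induced mostly by type I interferon, fell by 2.34 ± 0.30 and 2.12 ± 0.30 and stayed under 4 CPM in both groups. The 2 that rose were Ifih1 and Zbp1, sensors of nucleic acids (0.58 and 0.33), named after their values were seen; 1 remained called without the first library of either group. GAAANN followed by GAAA was in 16 of 31 windows of the list (51.6%), against 3.44% of all and 3.19% of tested genes. Over tested genes it was in 2.88% of windows of those called higher, 4.25% of those called lower and 2.8% of those not called. Among called genes with a rounded log2 fold change of at least 1 in size, the shares were 3.42% for those higher and 10.4% for those lower. The latter genes include members of this list, such as Iigp1. Like the hypoxia list, this list was put together from known genes, so its share is no test.

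Of 19 NF-kB targets and genes of the response to bacteria 12 rose and 3 fell, with a median of 0.32; 1 fell without the first library of either group. Il6, the cytokine, had 2.15, 2.58 and 2.67 CPM in lactate with Oxyrase and 0.0903, 0.0304 and 0.116 CPM in NaCl. Ptgs2, the prostaglandin synthase COX-2, had 8.85, 10.3 and 10.7 CPM in lactate with Oxyrase and 1.45, 0.944 and 0.964 CPM in NaCl (3.14 ± 0.18). Both were apart between the groups. Nfkb2, a subunit of the non-canonical pathway, rose by 0.89 ± 0.04 and was lower with lactate alone than with NaCl, at 258, 252 and 253 CPM beside 287, 284 and 265 CPM.

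Receptors of T cell restraint differed among themselves. Of 18 tested 10 rose and 5 fell, with a median of 0.27. Havcr2, the receptor TIM-3 (ENSMUSG00000020399, chr11:46454931-46481255), had 35.9, 35 and 39 CPM in lactate with Oxyrase and 1.93, 0.731 and 1.35 CPM in NaCl. The difference was 27.4-fold (log2 4.77 ± 0.20, adjusted p 4.39e-12 in edgeR) with no overlap. With lactate alone Havcr2 had 1.51, 1.77 and 1.14 CPM, and with pyruvate 14.7, 21.3 and 20.2 CPM. Pdcd1, which encodes PD-1, and Lag3 did not pass the test (-0.05 ± 0.04 and 0.13 ± 0.05). Lag3 passed at 0.18 without the first lactate with Oxyrase library. At 0.13 it also passed with upper-quartile scaling and with at least 10 counts in every library. Ctla4, chosen after its values were seen, fell by 1.32. Of 30 costimulatory and activation genes 11 rose and 12 fell, with a median of 0.00. Icos, a costimulatory receptor, had 92, 108 and 102 CPM in lactate with Oxyrase and 280, 272 and 271 CPM in NaCl (-1.44 ± 0.05), and the transcription factor Myc, which drives growth, fell by 0.56 ± 0.04.

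Among 24 transcription factors of effector and memory fate 5 rose and 14 fell, with a median of -0.25. Prdm1, Zeb2 and Id2, factors of effector differentiation, rose by 2.21 ± 0.20, 1.49 ± 0.07 and 1.03 ± 0.08. Zeb2 had 98.6, 95.5 and 93.1 CPM in lactate with Oxyrase and 38.1, 31.8 and 32 CPM in NaCl. Klf3 fell by 1.16 ± 0.08. Tcf7, a factor of memory and stem-like cells, had 113, 127 and 125 CPM in lactate with Oxyrase and 130, 123 and 129 CPM in NaCl, which overlapped and did not pass (adjusted p 0.22 in edgeR). Of 20 surface genes of naive and memory cells and homing 9 rose and 9 fell (median -0.07). Itgae, the integrin CD103, rose by 2.09 ± 0.22, the survival receptor Il7r by 0.48 ± 0.06 and the homing receptor Cxcr6 by 0.96 ± 0.16, while the chemokine receptor Cxcr3 fell by 1.14 ± 0.11. With lactate alone Il7r had 103, 93.5 and 92.9 CPM and was called higher than with NaCl (0.63 ± 0.06). Against lactate alone, lactate with Oxyrase was called lower for Il7r (-0.15 ± 0.06).

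The labelled cell type was checked on its own markers and on those of cells that the isolation could have carried along. The CD8 T lineage markers were high in both groups, with a summed level of 2818 to 2945 CPM in lactate with Oxyrase and 3897 to 4004 CPM in NaCl, and 10 of 12 fell, with a median of -0.45. Cd8a had 399, 404 and 415 CPM in lactate with Oxyrase and 675, 711 and 686 CPM in NaCl (-0.77 ± 0.04), and Cd2, an adhesion receptor, fell by 1.11 ± 0.06. In these bulk samples fewer cells of a type and less RNA per cell cannot be told apart. Cd4 stood at 0.334 to 0.378 CPM in lactate with Oxyrase and 0.422 to 0.609 CPM in NaCl. The summed CD4 and regulatory T cell markers, 81.6 to 89.3 CPM in lactate with Oxyrase and 46.4 to 48.6 CPM in NaCl, included Zbtb7b, the CD4-lineage factor ThPOK, at 47.4, 36.9 and 45 CPM against 9.21, 9.56 and 11.1 CPM (2.12 ± 0.09). Foxp3, the regulatory T cell factor, fell by 2.40 ± 0.21 and was under 5 CPM in both groups.

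B cell markers summed to 68.4 to 79.2 CPM in lactate with Oxyrase and 202 to 212 CPM in NaCl. Almost all of it was Ighm, an immunoglobulin heavy chain gene, which fell by 1.56 ± 0.05, while Ms4a1 stayed under 0.4 CPM. The 5 tested B cell markers did not move together: 2 fell, 1 rose (Ebf1, by 1.22 ± 0.28) and 2 did not pass. Myeloid and dendritic cell markers summed to 5.67 to 7.5 CPM in lactate with Oxyrase and 1.85 to 2.1 CPM in NaCl, with 6 of 13 at no more than 3 counts in every library and S100a8 and S100a9 at 0 in all. Cd68, a lysosomal protein, made up most of that sum and rose by 1.84 ± 0.18, and Itgax, which encodes CD11c, stood at 0.963, 0.585 and 0.759 CPM in lactate with Oxyrase and at 0.0301, 0 and 0 CPM in NaCl. Natural killer cell markers summed to 22 to 25.5 CPM in lactate with Oxyrase and 6.15 to 6.83 CPM in NaCl, nearly all of it the receptor Klri2 (2.04 ± 0.09), and 4 of these 7 were at no more than 3 counts in every library. Erythroid and platelet markers summed to at most 1 CPM in lactate with Oxyrase and at most 0.733 CPM in NaCl, and stromal and endothelial markers to 14.1 to 17.8 CPM and 25.4 to 29.2 CPM, mostly Pecam1, an adhesion molecule that lymphocytes also express. The part that shifts in these cells play in the results above was not tested.

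Genes of DNA replication fell and those of mitosis did not follow. Of 35 replication genes 23 fell and none rose, with a median of -0.23, against 24.3% of all genes lower. Rrm1, a ribonucleotide reductase subunit, had 321, 337 and 318 CPM in lactate with Oxyrase and 507, 483 and 500 CPM in NaCl (-0.61 ± 0.04), and the flap endonuclease Fen1 fell by the same amount. Of 28 genes of mitosis 13 rose and 6 fell (median 0.09), with Anln, an anillin, at 0.50 ± 0.05 and the kinase Aurkb at -0.49 ± 0.04. Among 23 genes of arrest and p53 targets 9 rose and 8 fell: the arrest gene Cdkn1a rose by 0.56 ± 0.05 and Zmat3, a p53 target, fell by 0.78 ± 0.08; 5 fell without the first NaCl library. Of 36 cytosolic ribosomal protein genes 15 rose and 2 fell (median 0.04), whereas of 28 genes of ribosome biogenesis 4 rose and 15 fell (median -0.12). Leaving out the first lactate with Oxyrase library left 2 of the biogenesis genes higher and 1 of the ribosomal protein genes lower, and that last count was also 1 without the second lactate with Oxyrase library or without the first or second NaCl library. Of 24 genes of autophagy and lysosomes 10 rose and 6 fell, with Sqstm1, an autophagy receptor, at 240, 231 and 247 CPM in lactate with Oxyrase and 120, 116 and 122 CPM in NaCl (1.01 ± 0.04). Of 11 osmotic stress genes 7 rose and 2 fell, with Aqp9, a channel for water and small solutes, at 2.09 ± 0.25 and Akr1b3, aldose reductase, at -0.35 ± 0.04.

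Set against lactate alone, which differs by Oxyrase, lactate with Oxyrase gave nearly as many calls as against NaCl: 7323 genes were called (49.7%), 3843 higher (26.1%) and 3480 lower (23.6%). Lactate alone against NaCl gave 1140 calls (7.73%), 532 higher (3.61%) and 608 lower (4.12%). These comparisons share libraries, so their values are given side by side only. Against lactate alone, 31 of 31 genes of the integrated stress response were higher (median 0.96), 24 of 30 of cholesterol synthesis lower (median -0.76), 26 of 36 hypoxia genes higher (median 0.59) and 20 of 25 cytotoxic and cytokine genes higher (median 0.86). Lactate alone against NaCl had medians of 0.10, 0.00, 0.02 and -0.02 for the same lists. The interferon-stimulated genes were lower against lactate alone in 20 of 34 (median -0.45), beside 12 of 34 lower in lactate alone against NaCl (median -0.30). The p53 and arrest list had a median of 0.35 against lactate alone, 0.04 against NaCl and -0.19 for lactate alone against NaCl. Il23a differed by 4.98 ± 0.12, Ifi47 and Hmgcs1 fell in lactate with Oxyrase against lactate alone as they did against NaCl, and Hif1a fell by 0.51 ± 0.04.

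**Figure D4:**
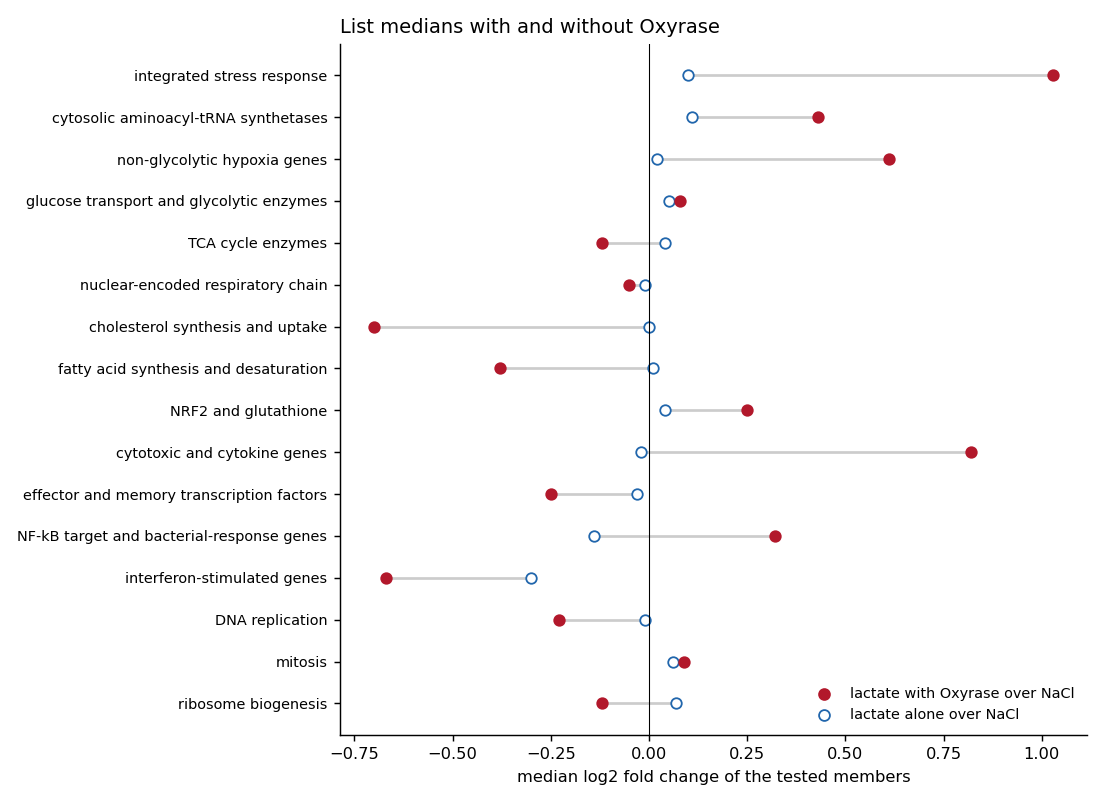
Median log2 fold change (x axis) of the tested members of 16 gene lists (rows), with filled points for lactate with Oxyrase over NaCl and open points for lactate alone over NaCl; both comparisons use the same NaCl libraries. Filled points run from -0.70 to 1.03, while open points stay between -0.30, for interferon-stimulated genes, and 0.11, for the synthetases.

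Chromatin accessibility was measured by ATAC-seq in libraries of the same groups (3 lactate with Oxyrase and 3 NaCl), at 25308254 to 37074367 counts in peaks. Of 75802 tested peaks 30885 were called (40.7%), with 16309 more open (21.5%) and 14576 less open (19.2%) in lactate with Oxyrase. Among 12580 peaks within 1 kb of an end of a tested gene, 816 were more open (6.49%) and 6321 less open (50.2%), with a median log2 fold change of -0.251, against 0.029 over all peaks. When the libraries were instead scaled on gene-end peaks alone, 3261 were more open and 3178 less open, so the direction of these peaks as a class depends on the scaling, and the class medians that follow are given relative to the median of all genes with a peak (-0.30). By the strongest peak at each gene, genes that rose at least 2-fold stood 0.21 above the median of all 11437 genes with such a peak. Under the scaling on all peaks, 19% of them had a called more open peak, against 3.78% of all. A called less open peak was found at 31.5% of them, against 58.7% of all. These shares of calls are tied to that scaling and were not counted under scaling on gene-end peaks. Genes called higher stood 0.03 above, those not called 0.01 below and those called lower 0.03 below, but genes that fell at least 2-fold stood 0.11 above the median.

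Single genes differed in whether their end peak moved with their mRNA. Their log2 fold changes and calls are on the unshifted scale, and the value relative to the median of genes follows where it is given. The peak at Il23a (chr10:128297893-128298458) had 26.1, 27.1 and 24.9 CPM in lactate with Oxyrase and 18.2, 19.4 and 16.1 CPM in NaCl (log2 fold change 0.54 ± 0.09, or 0.85 above the median of genes), and that at Havcr2 (chr11:46454612-46455092) had 20.6, 19.3 and 17.7 CPM against 15.5, 11.1 and 11.8 CPM (0.59 ± 0.11, or 0.89 above the median). Both were apart between the groups. Nqo1, Nupr1 and Il6 had more open peaks by 0.84 ± 0.09, 0.93 ± 0.20 and 0.94 ± 0.18, and the first 2 stood 1.14 and 1.24 above the median. The peaks at Csf2 and Ifng did not open: they stood at -0.25 ± 0.10, called lower, and -0.17 ± 0.09, not called, or 0.06 and 0.13 above the median of genes. Trib3, with 55.8, 64.5 and 56.8 CPM in lactate with Oxyrase and 53.2, 59.5 and 59.5 CPM in NaCl, overlapped (0.34 above the median). The peak at Fads2 fell, with 29.7, 29.2 and 26.2 CPM in lactate with Oxyrase and 45.4, 50.9 and 40.9 CPM in NaCl (-0.69 ± 0.09, or -0.38 relative to the median), and that at Elovl6 did not pass (-0.02 ± 0.09, or 0.28 above the median). The peak over the promoter of Ahrr printed above (chr13:74292074-74292622) was more open by 0.34 ± 0.13, or 0.64 above the median.

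**Figure D5:**
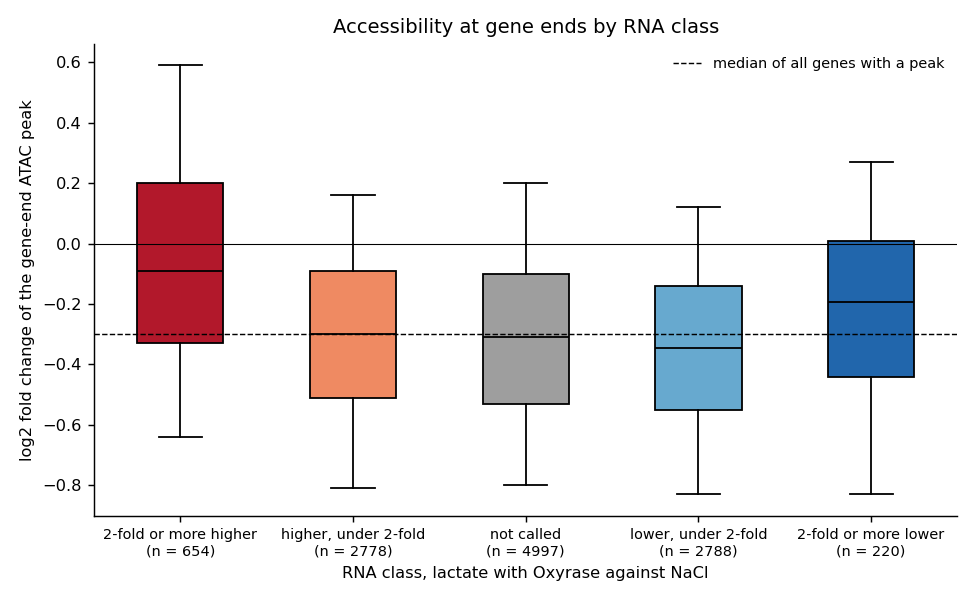
Log2 fold change in accessibility of the strongest peak within 1 kb of a gene end (y axis), for genes grouped by their RNA change between lactate with Oxyrase and NaCl (x axis; n = 654, 2778, 4997, 2788 and 220). Boxes span the quartiles with the median as a line, whiskers run between the 5th and 95th percentiles, and the dashed line is the median of all genes with a peak (-0.30). The class that rose at least 2-fold lies highest, with a median of -0.09.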

How the data were processed

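Messenger RNA was sequenced from poly(A)-selected libraries, per the labels' protocols. The submitters' processing notes name Trimmomatic, RSEM 1.2.12, Bowtie2 2.2.0, edgeR 3.20.9, BWA, Picard, MACS2, bedtools and build mm10. The deposited RNA table holds estimated counts per gene that the authors adjusted, as its name says, by a step not given in the sources used here: 99.24% of its non-zero values are whole (tolerance 1e-09), and of 460 genes with other values above 1, 448 are at 0 throughout 1 replicate number. The adjustment may have removed spread between replicates, which would make p-values too small. The deposited ATAC table holds counts of reads in peaks, per the file headers.

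Estimated counts were rounded to whole numbers. edgeR 4.0.16 (R 4.3.3) was fitted to all 12 RNA libraries with 1 term per group (filterByExpr, TMM, quasi-likelihood test, 8 residual degrees of freedom), with a Benjamini-Hochberg threshold of 0.05 over all 14749 genes. The same model was fitted to the peak counts. The limit of 3 counts covers counting error only. A symbol was found for 55141 of 55401 gene identifiers. Positions and promoter windows came from RefSeq tables (GRCm38.p6), with a promoter for 10170 of 14738 tested symbols; motifs were searched on both strands.

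Named genes were the 10 highest and 10 lowest called genes with a mean of 3 or more in log2 CPM, a proper symbol and groups that did not overlap, the 4 called members of largest change in each list, a fixed set of T cell and hypoxia genes, and genes said to be chosen after their values were seen. The members and lists were chosen with earlier results of these data known. Alternatives were other scalings and filters, DESeq2 1.42.0, a test against 1.2-fold, each replicate left out and a replicate block. Some members of the lists are counted but not reported here by name.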

Additional observations from a re-analysis of the deposited data

How the results depend on the processing

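No gene called in lactate with Oxyrase against NaCl was called in the opposite direction under any of the RNA alternatives run. Tested against a fold of 1.2 (edgeR's glmTreat), 3231 genes were called against NaCl, 1866 higher and 1365 lower, and 3038 against lactate alone. Against NaCl 17 named genes lost their call in that test. Beside Hif1a they included Ldha, Slc2a1, Slc16a1, Pdk1, Kdm3a, Cox7a2, mt-Co1, mt-Cytb and mt-Nd4l. Leaving out 1 library at a time gave 6708 to 7033 calls (3559 to 3712 higher, 3149 to 3321 lower), 6545 to 6845 against lactate alone, and 5911 to 7719 called gene-end peaks. Other scalings, filters, DESeq2 and a fit of the 6 libraries alone gave 7018 to 7564 calls, and a threshold of 0.01 gave 5818. A fit with the replicate number as a replicate block gave 6916 calls (3643 higher, 3273 lower), 6740 against lactate alone and 7528 gene-end peaks. It moved no named gene across the threshold. Deviations of lactate with Oxyrase and NaCl RNA libraries of the same number correlated at -0.21, -0.14 and -0.18. The unstated adjustment of the RNA counts may have removed deviations shared by a replicate number. The RNA block fit and these correlations therefore cannot show whether replicates were paired. All 31 genes of the integrated stress response rose under every alternative. Over the named genes and alternatives 2627 values stayed on their side of the threshold, 42 lost a call and 10 gained one, none with a reversed sign. Between 5911 and 8726 gene-end peaks were called, but their split between more and less open depends on the scaling, as given above. A level under 0.115 CPM, or 3 counts, could not be told from 0 in the shallowest library.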

Other observations

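The 3 lactate with Oxyrase libraries differed among themselves in which lists they led. The first library held the highest level of the 3 in 28 of 31 genes of the integrated stress response, in 16 of 20 aminoacyl-tRNA synthetases and in 21 of 28 genes of ribosome biogenesis. The second held the highest level in 25 of 30 genes of cholesterol synthesis and uptake and in 11 of 17 of fatty acid synthesis. The third held it in 30 of 36 cytosolic ribosomal protein genes, 26 of 40 nuclear-encoded respiratory chain genes and 21 of 34 mitochondrial ribosomal protein genes. Over all 14749 tested genes the highest level was in the first library for 35.6% of genes, the second for 31.6% and the third for 32.7%. These lists were picked from 38 after their counts were seen. The share of genes called also went with level: of the 2950 tested genes with the lowest mean, 15.3% were higher and 8.2% lower in lactate with Oxyrase, and of the 2950 with the highest mean, 33.6% were higher and 34.1% lower.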
